A study of Rattus norvegicus with 18 samples.

Results

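The long-chain acyl-CoA synthetases form a family of 5 genes, Acsl1, Acsl3, Acsl4, Acsl5 and Acsl6, which were read here in a fast hindlimb muscle of rats. They were taken as the probe sets whose only gene symbol is one of these names, and 5 of the 16856 genes that a probe set names alone met that rule. Each gene had 1 probe set, numbered 10791677 for Acsl1, 10716168 for Acsl5, 10733582 for Acsl6, 10924672 for Acsl3 and 10932795 for Acsl4, so no choice between probe sets was needed. All 5 lay above the filter on low values (the 25th percentile, 5.28 log2), and they are 5 of the 12642 genes tested. The family was chosen by a measured value, since Acsl4 was among the leading genes for the difference between high-fat-fed and chow-fed females whose grandfathers ate chow, so that difference is described below without a test.

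The RNA came from the extensor digitorum longus of 18 adult Sprague-Dawley females of the F2 generation, 1 animal per array. The founding F0 males, their grandfathers, had eaten chow or a high-fat diet, and the females themselves ate chow or a high-fat diet (42/45% of energy from fat) for 12 weeks. Groups are written as the grandfather's diet and then the female's own: chow/chow and chow/high-fat with 5 animals each, then high-fat/high-fat and high-fat/chow with 4 animals each. The granddaughters of chow-fed and of high-fat-fed males are called the chow and the high-fat lineage. The labels do not say how many F0 males founded a lineage, and animals that share a grandfather are not independent for comparisons of his diet, so the p-values of those comparisons may be too small. Levels are log2(intensity + 16) after quantile normalization. The offset of 16 makes log2 and fold changes smaller, most of all for a probe set of low intensity such as that of Acsl5. This also enters where the change of Acsl5 is set against that of another isoform. A probe set's brightness also depends on its probes, so each gene is compared with itself between groups and no isoform is ranked above another by level.

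Before a long-chain fatty acid can be burned, stored or built into membranes it has to be joined to coenzyme A, and Acsl enzymes carry out that step at the cost of ATP. The product, a long-chain acyl-CoA, can be passed to the carnitine shuttle for mitochondrial oxidation, or to acyltransferases that make triglycerides and phospholipids. The isoforms sit on different membranes and differ in the fatty acids they prefer. Acsl1 is the isoform tied to fatty acid oxidation in heart and skeletal muscle, Acsl5 is known from intestine and liver, and Acsl6 from brain and muscle. Acsl3 and Acsl4 are the closer relatives of each other, Acsl3 being found on the endoplasmic reticulum and nascent lipid droplets and Acsl4 preferring arachidonic acid and other polyunsaturated fatty acids.

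The sequence just upstream of the start site is shown for the genes that the results describe most: Acsl1 and Acsl4, whose mean levels were higher on the females' own high-fat diet, and Acsl5, whose mean level was higher in the high-fat lineage. With the main settings none of these differences passed a test over all genes, and that of Acsl4 is in part the one by which the family was chosen. Each is 250 bases, 5′ to 3′ on the strand of the gene, from the RefSeq promoters of assembly GRCr8, in which all 5 members were matched. Capitals mark CG dinucleotides.
Acsl1 (chr16:52532393-52532642, minus strand): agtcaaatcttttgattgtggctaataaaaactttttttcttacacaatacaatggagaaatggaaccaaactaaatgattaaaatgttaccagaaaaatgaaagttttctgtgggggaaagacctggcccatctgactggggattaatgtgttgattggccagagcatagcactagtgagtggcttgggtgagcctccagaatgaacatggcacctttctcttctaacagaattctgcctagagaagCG
Acsl4 (chrX:110803262-110803511, minus strand): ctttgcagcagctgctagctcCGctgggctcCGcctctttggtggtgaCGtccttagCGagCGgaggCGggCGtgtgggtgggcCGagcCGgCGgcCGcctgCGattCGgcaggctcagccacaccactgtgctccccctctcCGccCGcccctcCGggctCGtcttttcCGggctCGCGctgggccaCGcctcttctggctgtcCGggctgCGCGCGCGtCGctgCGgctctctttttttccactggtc
Acsl5 (chr1:264294601-264294850, plus strand): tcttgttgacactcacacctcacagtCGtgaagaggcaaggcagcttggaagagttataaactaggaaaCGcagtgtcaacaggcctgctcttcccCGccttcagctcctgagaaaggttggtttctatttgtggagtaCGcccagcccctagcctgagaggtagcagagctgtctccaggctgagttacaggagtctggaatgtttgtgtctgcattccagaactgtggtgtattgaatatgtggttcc

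The windows differ in base composition. Acsl4 holds 28 CG dinucleotides and is 70.4% G or C, and Acsl3 holds 31 and is 72.4% G or C. Acsl1 holds 1, Acsl6 holds 2 and Acsl5 holds 4, beside a median of 5 over 33469 promoter windows of this length. The Acsl4 window has more CG than 93.2% of all windows and the Acsl3 window more than 95.3%. The start used for Acsl1 lies 21718 bases inside the outer end of its gene as RefSeq draws it, that of Acsl6 11493 bases and that of Acsl4 155 bases, so other start sites of these genes are not covered, while Acsl3 and Acsl5 start at the outer end. The nuclear receptor hexamer AGGTCA, searched on both strands, was in 0 of the 5 windows and in 14.1% of all windows. Its direct repeat with 1 base between the copies, the element bound by pairs of PPAR and RXR, was in 0 of 5 and in 0.0508% of all, and says no more than that these letters are not in these windows.

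Of 12 genes listed for fast fibres 8 were measured, among them Acta1 and Ckm, which skeletal muscle expresses in general. The summed intensity of the 8 lay between 55197 and 60071 on every array. Myh4, Myh1, Mylpf and Atp2a1 were not measured, so the sum shows muscle and cannot tell which muscle it was. The deposited median intensity of an array ran from 55.02 to 73.97. The number of genes called for the grandpaternal diet, averaged over own diets, was 25 with all arrays and hung on single arrays: it was 0 to 15 without any 1 of 16 arrays, 38 without high-fat/high-fat replicate 1 and 303 without high-fat/chow replicate 1. Results are also given without the last where it moved them.

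Acsl1, the isoform of muscle fatty acid oxidation, had log2 levels of 11.12, 10.94, 10.93, 10.74 and 10.87 in chow/chow. In high-fat/chow the levels were 10.93, 11.03, 10.86 and 10.67. On the own high-fat diet it had 11.45, 10.75, 11.19, 11.44 and 11.10 in the chow lineage and 11.39, 11.58, 11.22 and 10.94 in the high-fat lineage. In each lineage the high-fat-fed animals reached higher than any chow-fed animal, yet chow/high-fat replicates 2 and 5 and high-fat/high-fat replicate 4 lay below the highest chow-fed animal of their lineage, so the groups overlapped. In deposited intensity the group means were 1988 ± 186.6 (SD, n = 5) in chow/chow and 2219 ± 440.4 (SD, n = 5) in chow/high-fat, and 1821 ± 170.8 (SD, n = 4) in high-fat/chow and 2642 ± 556.5 (SD, n = 4) on the high-fat diet of that lineage.

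Acsl4, the isoform that prefers arachidonic acid, had log2 levels of 8.37, 8.28, 8.22, 8.06 and 8.03 in chow/chow and 8.65, 8.90, 8.40, 8.51 and 8.62 in chow/high-fat. In the high-fat lineage it had 8.50, 8.15, 8.08 and 8.35 on chow and 8.34, 8.61, 8.62 and 8.41 on the high-fat diet. Every chow/high-fat animal lay above every chow/chow animal, while in the high-fat lineage the groups overlapped, high-fat/chow replicates 1 (8.50) and 4 (8.35) lying above the lowest high-fat-fed animal (8.34). The animal with the highest Acsl4 of all 18, chow/high-fat replicate 2, was also the one with the lowest Acsl6 and the lowest Acsl1 of its group.

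Acsl5, an isoform of intestine and liver, had group means of 60.4 to 82.5 in deposited intensity, near the median intensity of an array. Its log2 levels were 6.45, 6.45, 6.27, 6.46 and 6.50 in chow/chow and 6.38, 6.32, 6.13, 6.59 and 6.25 in chow/high-fat. In the high-fat lineage they were 6.47, 6.71, 6.67 and 6.63 on chow and 6.49, 6.50, 6.53 and 6.52 on the high-fat diet. All but 1 of the 10 chow-lineage animals lay at 6.50 or below and all but 1 of the 8 high-fat-lineage animals at 6.49 or above. Acsl6, known from brain and muscle, ranged from 10.30 to 10.66 in chow/chow, 9.93 to 10.59 in chow/high-fat, 10.46 to 10.63 in high-fat/chow, and 10.47 to 10.63 where both diets were high-fat. Acsl3, the isoform of lipid droplet formation, lay at 8.96, 8.96, 8.73, 8.87 and 9.0 in chow/chow, and ranged from 8.50 to 9.29, 8.42 to 9.27 and 8.69 to 8.84 in the other groups in the same order. Its highest value in high-fat/chow was that of replicate 1, the other 3 animals lying at 8.69 or below.

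**Figure D1:**
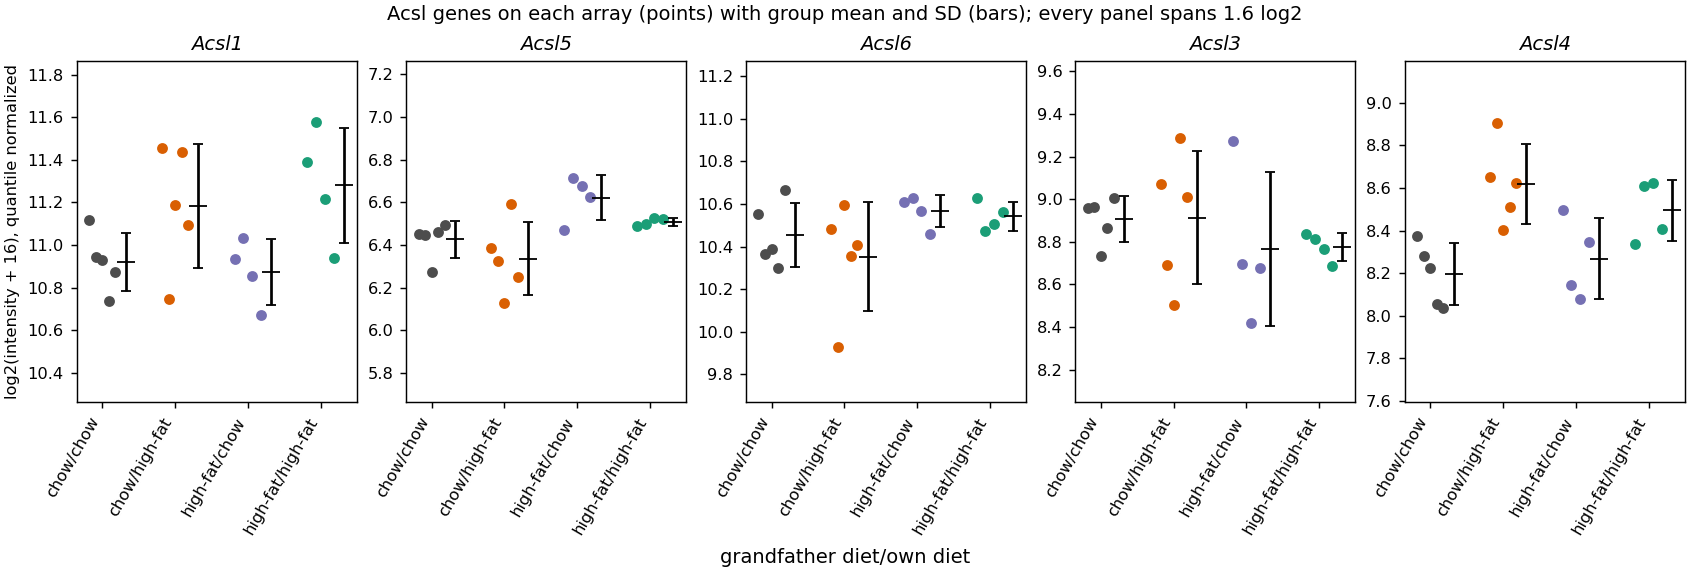
The log2 level of each Acsl gene (y axis, quantile normalized log2(intensity + 16)) is plotted for each array (points) in the 4 groups (x axis, grandfather diet/own diet), with group mean and SD beside the points. Acsl1 and Acsl4 sit higher on the own high-fat diet in each lineage (means 11.18 against 10.92 and 11.28 against 10.87 for Acsl1), and Acsl5 sits higher in the high-fat lineage (6.62 and 6.51 against 6.43 and 6.34).

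The isoforms also differed in how much animals of 1 group varied. The pooled SD within groups was 0.24 log2 for Acsl3 and 0.22 for Acsl1, larger than that of 92.7% and 89.7% of all genes tested. It was 0.17 for Acsl4 and 0.16 for Acsl6, and 0.11 for Acsl5, beside a median of 0.14 over all genes. For Acsl1 the spread was wider among high-fat-fed animals (SD 0.29 and 0.27) than among chow-fed animals (0.14 and 0.15), a description that was not tested. These spreads, with 4 or 5 arrays a group, set the precision: the 95% confidence interval of the own-diet change in the high-fat lineage reached 0.30 log2 to either side for Acsl1 and 0.18 for Acsl5.

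The first comparison asked how the isoforms stood after 12 weeks of high-fat feeding in the high-fat lineage, whose animals played no part in singling out Acsl4. Acsl1 was higher by 0.41 log2 (1.33-fold, SE 0.14, 95% confidence interval 0.11 to 0.71), with 4 of 4 high-fat-fed animals above the mean of the 4 chow-fed. This did not pass the threshold of 0.05 (limma adjusted p = 0.432 over 12642 genes, unadjusted p = 0.0105), and a two-sided exact permutation of the 8 animals gave p = 0.0571, where 0.0286 is the smallest it can give. Acsl4 was higher by 0.23 log2 (1.17-fold, SE 0.11, 95% confidence interval -0.0075 to 0.46, limma adjusted p = 0.569; exact permutation p = 0.143), again with 4 of 4 animals above the chow-fed mean. Without high-fat/chow replicate 1 the difference was 0.30 (limma adjusted p = 0.525).

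The other isoforms differed less in that comparison. Acsl5 differed by -0.11 log2 (SE 0.084), with 0 of 4 high-fat-fed animals above the chow-fed mean. Acsl6 differed by -0.023 (SE 0.11), a sign that turned in the deposited values and with arrays centred on their medians, and Acsl3 by 0.011 (SE 0.16), a sign that turned without any of 5 single arrays. For these 3 the limma adjusted p was 0.734, 0.979 and 0.995. In all, 0 of 5 members were called, beside a background of 0% (0 of 12642 genes called, 1170 with an unadjusted p under 0.05, of which Acsl1 was the only member). For 0 of 5 members did the groups stand clear of each other, which 2.06% of all genes did upward and 2.06% downward. Within the 3 numbers that end the sample titles (5, 7 or 9, which read like columns of a plate and which the labels do not explain), the Acsl1 difference was 0.27 (1 high-fat-fed animal against 2), 0.0061 (1 against 1) and 0.81 (2 against 1), and that of Acsl4 was 0.51, -0.087 and 0.13. With that number as a block the differences were 0.41 and 0.23. Titles also hold animal numbers, and in the 3 pairs of this lineage whose numbers lie 3 or fewer apart the high-fat-fed animal was higher in 3 of 3 for Acsl1 (0.085 to 0.64) and in 3 of 3 for Acsl4 (0.11 to 0.48). The labels do not say that such animals are related. In whole muscle, fewer cells of a type and less RNA per cell cannot be told apart.

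In the chow lineage the values are a description, since this is where Acsl4 was noticed. Acsl4 was higher by 0.43 log2 on the high-fat diet (1.34-fold, SE 0.10). Because Acsl4 was chosen by this difference, the value may be too large, and so may its share in the average over lineages and in the contrast between lineages below. Acsl1 was higher by 0.26 (1.20-fold, SE 0.13, 95% confidence interval -0.0047 to 0.53), with 4 of 5 animals above the chow-fed mean. Acsl6 was lower by 0.10 log2 on average (log2 change -0.10, SE 0.099), as was Acsl5 (-0.091, SE 0.075), and Acsl3 differed by 0.0079 (SE 0.14). With single arrays left out, the change of Acsl6 ran from -0.16 to 0.0060. Groups stood clear of each other for 1 of 5 members, Acsl4, as they did upward for 0.419% of all genes and downward for 0.34%; by adjusted p, 0% of genes were called. Averaged over the lineages, the own diet went with differences of 0.33 in Acsl1 (SE 0.096), 0.33 in Acsl4 (SE 0.075), -0.10 in Acsl5 (SE 0.056), -0.062 in Acsl6 (SE 0.074) and 0.0093 in Acsl3 (SE 0.10), where 0.0158% of genes were called. The own-diet change in the high-fat lineage minus that in the chow lineage was 0.14 for Acsl1 (SE 0.19), -0.20 for Acsl4 (SE 0.15), and between -0.022 and 0.077 for the others. The 95% confidence interval of Acsl1 ran from -0.26 to 0.55, which leaves room for a difference either way. No interval is read for Acsl4, which was chosen by a part of this contrast. In the deposited values, where the median of all genes was shifted by 0.24, all 5 of these differences between lineages lay above 0: 0.37 for Acsl1, 0.11 for Acsl4, 0.19 for Acsl5, 0.34 for Acsl6 and 0.32 for Acsl3. The direction for Acsl1 was the same in both lineages under every setting tried. So was that of Acsl4, but its direction in the chow lineage is the one by which it was chosen. The settings reuse the same arrays.

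**Figure D2:**
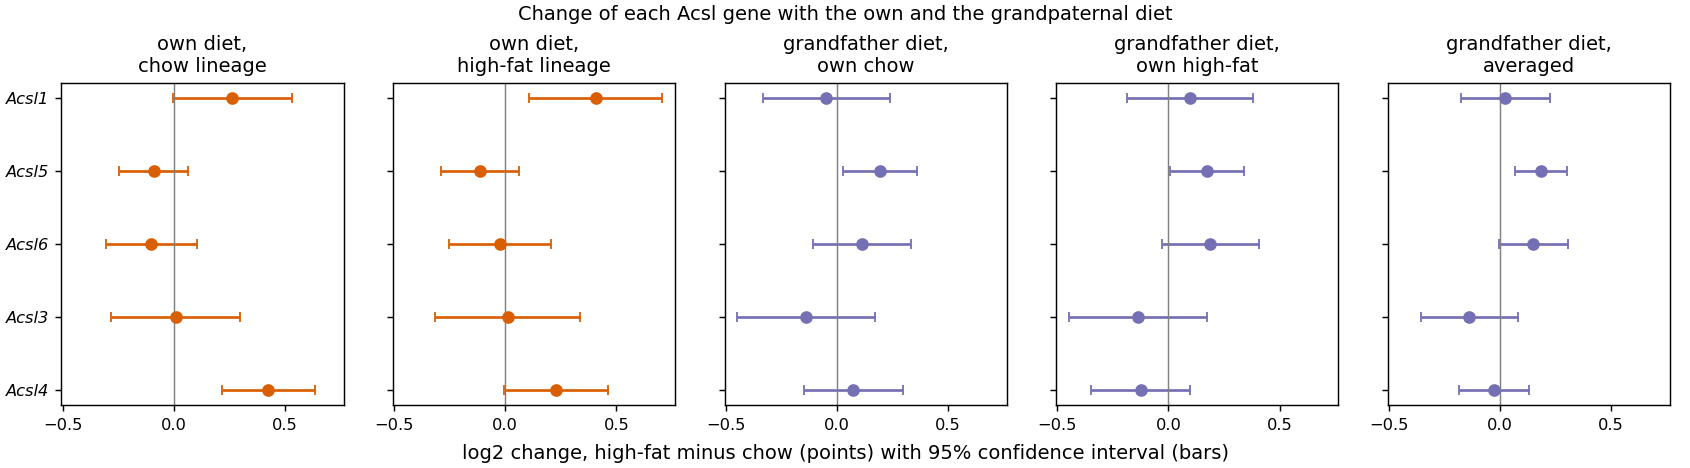
The log2 change of each Acsl gene (y axis) between high-fat and chow is plotted (x axis, points, with 95% confidence intervals as bars) for the own diet in each lineage and for the grandpaternal diet at each own diet and averaged. Acsl1 (0.26 and 0.41) and Acsl4 (0.43 and 0.23) lie to the right of 0 for the own diet, and Acsl5 (0.19, 0.17 and 0.18) for the grandpaternal diet. The bar of Acsl4 for the own diet in the chow lineage is not to be read as a test, since Acsl4 was chosen there.

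The next comparison set the high-fat lineage against the chow lineage, averaged over the females' own diets, to ask what went with the diet of the grandfather. Acsl5 was higher by 0.18 log2 in the high-fat lineage (1.14-fold, SE 0.056, 95% confidence interval 0.066 to 0.30), with 8 of 8 animals above the mean of the chow lineage on the same own diet. It did not pass over all genes (limma adjusted p = 0.140, unadjusted p = 0.00397; two-sided exact permutation of lineages within own diets, p = 0.00321). Over the other settings its adjusted p ran from 0.0548, without high-fat/chow replicate 1, to 0.291. Acsl6 was higher by 0.15 (1.11-fold, SE 0.074, 95% confidence interval -0.0040 to 0.31, limma adjusted p = 0.356; exact permutation p = 0.0494), also with 8 of 8 animals above that mean. Acsl3 differed by -0.14 (SE 0.10, adjusted p = 0.561 by limma), and without high-fat/chow replicate 1 by -0.22 (adjusted p = 0.181). Acsl1 differed by 0.025 (SE 0.096, adjusted p = 0.934) and Acsl4 by -0.026 (SE 0.075, adjusted p = 0.907), and both signs turned with arrays centred on their medians. Acsl4 keeps a test here although its chow-lineage arrays singled it out. With 5 and 5 animals in that lineage, this average is uncorrelated with the difference that did so. Its spread on those arrays still enters, so its p is to be read with care. Thus 0 of 5 members were called, beside 0.198% of all genes (25 of 12642, and 1851 with an unadjusted p under 0.05).

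Split by the females' own diet, the lineages stood as follows. On chow, Acsl5 was higher in the high-fat lineage by 0.19 log2 (SE 0.080, limma adjusted p = 0.518), or 0.25 without high-fat/chow replicate 1 (adjusted p = 0.231). On the high-fat diet it was higher by 0.17 (SE 0.080, limma adjusted p = 0.353). Within title numbers 5, 7 and 9 the Acsl5 difference on chow was 0.24, 0.20 and 0.13, and on the high-fat diet it was 0.039 and 0.29 in numbers 5 and 7, with no animal to compare in number 9. Acsl6 differed by 0.11 (SE 0.10) on chow and 0.19 (SE 0.10) on the high-fat diet. Within title numbers 5, 7 and 9 its difference on chow was 0.19, 0.22 and -0.20. On the high-fat diet it was 0.085 and 0.25 in numbers 5 and 7. Acsl3 differed by -0.14 (SE 0.15) on each, turning to 0.11 on the high-fat diet in the deposited values, and Acsl1 by -0.047 and 0.096 (SE 0.14 each). Acsl4, given without a test because its chow-lineage arrays are those that singled it out, differed by 0.073 on chow and -0.13 on the high-fat diet (SE 0.11 each), the latter turning to 0.12 in the deposited values.

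Of the 4 members tested, 0 were called on chow (0.00791% of genes called) and 0 on the high-fat diet (0%, with 1682 genes at an unadjusted p under 0.05). The groups overlapped for 5 of 5 members in each, while 1.53% and 1.75% of genes stood clear upward and downward on chow and 2.37% and 2.34% on the high-fat diet. In the deposited values without further normalization 2 members, Acsl5 (0.34, adjusted p = 0.0278 by limma) and Acsl6 (0.38, adjusted p = 0.0316), passed on the high-fat diet. There the median of all genes was itself shifted by 0.18 log2 and 1689 genes were called.

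Whether isoforms differed from each other in their change was tested on the difference of 2 genes within each array, for 10 pairs in each of 2 comparisons. For the own diet in the high-fat lineage, the change of Acsl1 exceeded that of Acsl5 by 0.52 log2 (95% confidence interval 0.17 to 0.86), that of Acsl6 by 0.43 (0.13 to 0.73) and that of Acsl3 by 0.40 (0.016 to 0.78). The change of Acsl5 lay below that of Acsl4 (difference -0.34, 95% confidence interval -0.67 to -0.0058). None of these 4 passed (two-sided exact permutation p = 0.0571, 0.0571, 0.114 and 0.114, each 0.286 after adjustment over 10 pairs). With 70 permutations the exact permutation test could give no p below 0.0286. A pair at that floor could pass the adjustment over 10 pairs only if most other pairs lay there too. The adjusted test could therefore hardly call a pair here, and no conclusion is drawn from it. The intervals rest on the model of all arrays, while the permutations move only animals of the high-fat lineage. Acsl1 and Acsl4 differed by 0.18 (95% confidence interval -0.26 to 0.62, exact permutation p = 0.400), an interval that leaves room for a difference either way. For the grandpaternal diet, the change of Acsl5 exceeded that of Acsl3 by 0.32 (95% confidence interval 0.078 to 0.56, exact permutation p = 0.00888, adjusted 0.0888), and that of Acsl6 exceeded that of Acsl3 by 0.29 (0.012 to 0.57, exact permutation p = 0.0380, adjusted 0.190). In each comparison 0 of 10 pairs passed, and 2 pairs did unadjusted for the grandpaternal diet. For the own diet the smallest possible p all but fixed the count after adjustment. Without high-fat/chow replicate 1, the array of highest Acsl3 in its group, 3 pairs passed: Acsl5 against Acsl3 (0.43, exact permutation adjusted p = 0.00142), Acsl5 against Acsl4 (0.27, 0.0425) and Acsl6 against Acsl3 (0.37, 0.0326). The pair with Acsl4 uses the arrays by which Acsl4 was chosen, so no conclusion is drawn from that pair. Without chow/high-fat replicate 3, 2 pairs passed, Acsl5 against Acsl3 (0.35, 0.0374) and Acsl6 against Acsl3 (0.37, 0.0283).

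**Figure D3:**
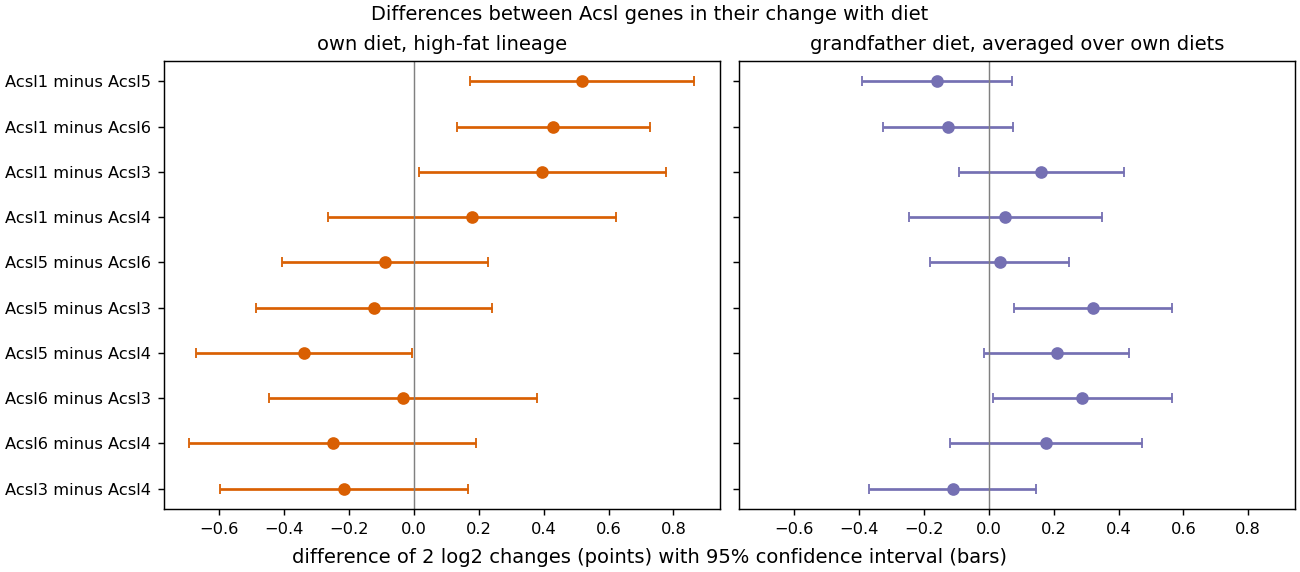
The difference between 2 Acsl genes in their log2 change (x axis, points, with 95% confidence intervals as bars) is plotted for the 10 pairs (y axis), for the own diet in the high-fat lineage and for the grandpaternal diet averaged over own diets. On the left the intervals of Acsl1 minus Acsl5, Acsl6 and Acsl3 lie above 0 and that of Acsl5 minus Acsl4 (-0.67 to -0.0058) lies below 0. On the right the intervals of Acsl5 minus Acsl3 and of Acsl6 minus Acsl3 lie above 0.

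Within groups the isoforms were not seen to vary together from animal to animal. Over 18 arrays, after the group means were removed, Acsl6 and Acsl4 had Pearson's r = -0.54 (permutation p = 0.0492, adjusted 0.371 over 10 pairs) and Spearman's rho = -0.41 (permutation p = 0.115). Without the 2 arrays of most extreme Acsl6 the r was -0.17, and within title numbers 5 and 7 it was 0.25 (8 arrays) and -0.77 (6 arrays), so the relation rests on few animals. Acsl1 and Acsl6 had r = 0.53 (permutation p = 0.0742, adjusted 0.371) and rho = 0.40 (permutation p = 0.126), with r = 0.28 without the 2 arrays of most extreme Acsl1 and 0.84 and 0.70 within title numbers 5 and 7. Acsl1 and Acsl3 had r = 0.43 (permutation p = 0.118, rho = 0.49) and Acsl1 and Acsl4 r = -0.10 (permutation p = 0.718). After adjustment 0 of 10 pairs passed.

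The genes most like a member were those of highest Pearson's r with it over the 18 arrays, out of 12641 other genes. These are descriptions of arrays that share 1 normalization and the group differences themselves, and carry no test. For Acsl1 they were Cpt2 (r = 0.93), the carnitine palmitoyltransferase of the inner mitochondrial membrane, Agpat2 (0.91), an acyltransferase of triglyceride and phospholipid synthesis, and Hadha (0.90), a subunit of the mitochondrial trifunctional protein. With group means removed the r of these 3 genes with Acsl1 was 0.89, 0.86 and 0.82, so the likeness also held among animals of 1 group. Acsl1 had 21 genes above r = 0.8, Acsl5 had 11, Acsl4 had 3, and Acsl6 and Acsl3 had 0.

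Acsl4 was most like Adtrp (r = 0.82), a hydrolase of fatty acid esters of hydroxy fatty acids, Sec24a (0.81), a coat protein of vesicles leaving the endoplasmic reticulum, and Crot (0.81), the peroxisomal carnitine octanoyltransferase. With group means removed these were 0.66, 0.76 and 0.69. Acsl5 was most like Anxa2 (0.86), Kdelr3 (0.84), a receptor that returns proteins to the endoplasmic reticulum, and Rarres1 (0.84). Acsl3 was most like Hsp90b1 (0.79), the chaperone of the endoplasmic reticulum, Cep83 (0.79) and Ercc5 (0.78), and Acsl6 was most like Or2y1d (0.80), Rragc (0.78) and Fn1 (0.78), the matrix protein fibronectin.

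**Figure D4:**
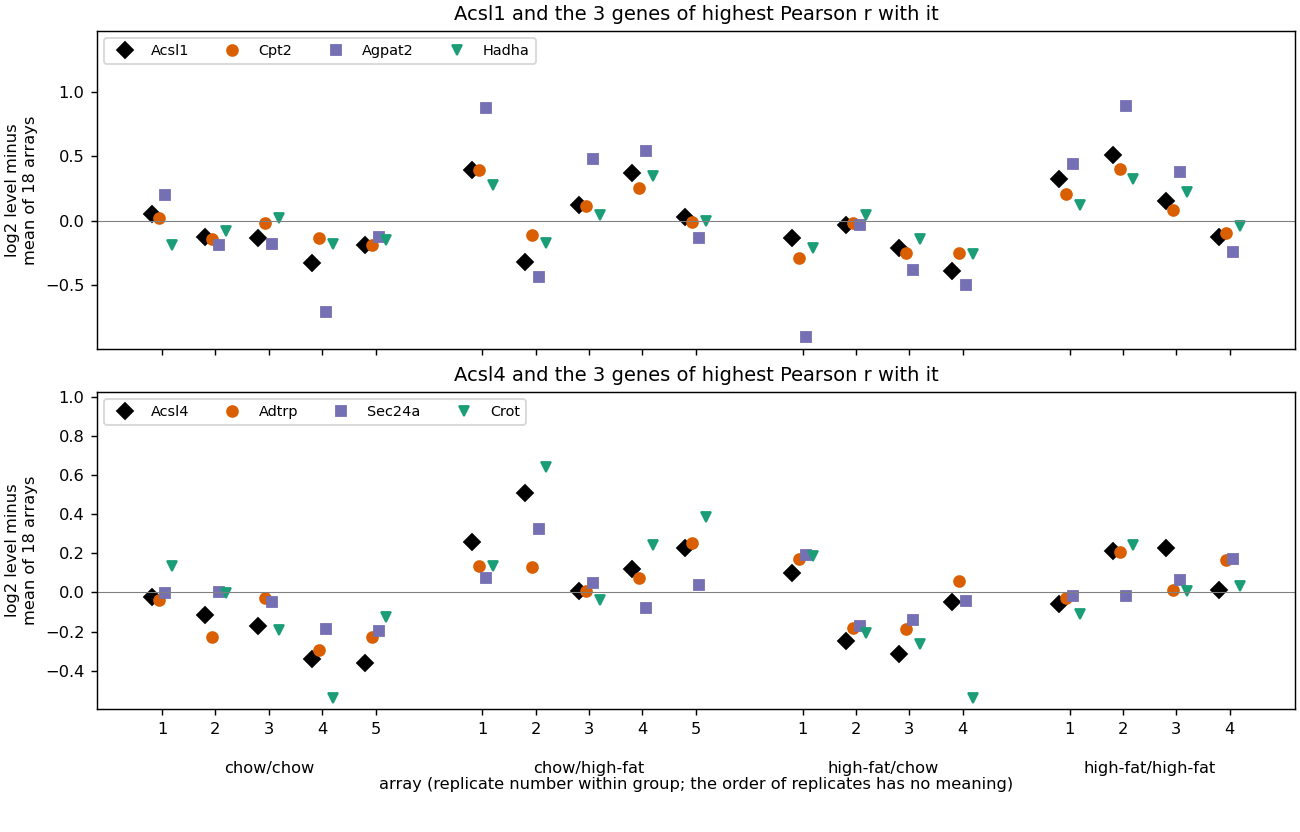
The log2 level minus its mean over 18 arrays (y axis) is plotted for Acsl1 and for Acsl4 (black diamonds) with the 3 genes of highest Pearson's r, on each array by group and replicate (x axis). Cpt2, Agpat2 and Hadha (r = 0.93, 0.91 and 0.90) sit low and high on the same arrays as Acsl1, including chow/high-fat replicate 2, the lowest of its group for all 4 genes.

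The steps before and after the synthetases were read from 3 lists. Of 14 genes that deliver long-chain fatty acids 12 were measured, and 0 rose or fell past the threshold in any comparison. Cd36 and Fabp3 were listed but not measured. In the own diet of the high-fat lineage 9 of 12 were higher, with a median of 0.19 log2 beside -0.0013 over all genes. The smallest p belonged to Plin5, which coats lipid droplets (1.06, SE 0.24, limma adjusted p = 0.245), Pnpla2, the lipase of triglyceride breakdown (0.27, SE 0.089, adjusted p = 0.404), and Plin2, also of lipid droplets (0.60, SE 0.21, adjusted p = 0.432). For the grandpaternal diet 5 of 12 were higher (median -0.028), with Fabp4, a fatty acid binding protein of fat cells and endothelium (-0.26, SE 0.10, adjusted p = 0.232), Abhd5 (0.052, SE 0.040) and Lipe (-0.14, SE 0.11) first by p.

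Of 21 other acyl-CoA synthetases and fatty acid transport proteins 10 were measured, and 0 passed in any comparison. In the own diet of the high-fat lineage 4 of 10 were higher (median -0.020). Slc27a1, a fatty acid transport protein of muscle with acyl-CoA synthetase activity, was higher by 1.14 log2 (SE 0.27, limma adjusted p = 0.245), beside 0.41 for Acsl1, and differed by 0.39 (SE 0.24) in the chow lineage. Aasdh (-0.23, SE 0.087) and Acss3, a synthetase for short chains (0.24, SE 0.096), followed by p. For the grandpaternal diet 3 of 10 were higher (median -0.040), with Acsf2 (-0.34, SE 0.15, adjusted p = 0.300 by limma), Aacs (-0.091, SE 0.061) and Acss3 (0.091, SE 0.064) first.

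Of 37 symbols for genes that bind or use long-chain acyl-CoA, some of them old and new names of 1 gene, 30 were measured and 0 passed. In the own diet of the high-fat lineage 19 of 30 were higher (median 0.059), and those of smallest p were Cpt1b, the muscle carnitine palmitoyltransferase of the outer membrane (0.20, SE 0.060, limma adjusted p = 0.344), Cpt2 (0.35, SE 0.11, adjusted p = 0.390) and Agpat2 (0.82, SE 0.26, adjusted p = 0.403). In the chow lineage 23 of 30 were higher (median 0.073). For the grandpaternal diet 12 of 30 were higher (median -0.048), with Acadl, a dehydrogenase of long-chain oxidation (-0.19, SE 0.064, limma adjusted p = 0.178), Acbd6 (-0.15, SE 0.062) and Acbd3 (-0.090, SE 0.051) first. Decr1, the reductase used as a reference for oxidation genes, was higher by 0.59 (SE 0.14) in the own diet of the high-fat lineage, and differed by -0.26 (SE 0.094) with the averaged grandpaternal diet.

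Markers of other cells and of fibre types moved alongside. Slow-fibre genes, among them Myh7, Tnnt1 and Tnni1, were higher on the own high-fat diet in 10 of 11 in the high-fat lineage (median 0.48 log2) and in 0 of 11 in the chow lineage (median -0.34). Their summed intensity ran from 10480 to 19856 in chow/chow, 6352 to 19830 in chow/high-fat, 6357 to 15425 in high-fat/chow, and 4907 to 17158 where both diets were high-fat. Fibroblast and matrix genes, among them Col1a1, Col1a2 and Col3a1, were higher in 0 of 8 and leukocyte genes, among them Ptprc, Cd68 and Itgam, in 0 of 10 on the own high-fat diet in the high-fat lineage (medians -0.24 and -0.21), and in 0 of 8 and 1 of 10 in the chow lineage (-0.23 and -0.16). The fibroblast sum ran from 7148 to 9495, 5445 to 8159, 7554 to 9504 and 6508 to 7855 in the same order of groups, and the leukocyte sum from 966 to 1312, 917 to 1253, 1149 to 1396 and 1016 to 1171. On the own high-fat diet in the high-fat and then the chow lineage, tendon genes were higher in 1 of 7 (median -0.30) and 0 of 7 (-0.34). Endothelial genes were higher in 3 of 4 (0.072) and 0 of 4 (-0.15), and red blood cell genes in 4 of 4 (0.12) and 4 of 4 (0.29). Nerve genes were higher in 3 of 6 (0.024) and 3 of 6 (0.028), and fast-fibre genes in 2 of 8 (-0.047) and 3 of 8 (-0.019). Fat-cell genes were higher in 4 of 9 (median -0.048) and 7 of 9 (0.075), with sums of 1741 to 2243, 2028 to 2364, 1679 to 2045 and 1713 to 2126 in the order of groups above. Beside the Acsl5 difference between lineages, averaged over own diets, 7 of 7 tendon genes, among them Tnmd, Scx and Thbs4 (median 0.13), 7 of 8 fibroblast genes (0.036) and 8 of 10 leukocyte genes (0.043) were higher in the high-fat lineage. So were 4 of 4 endothelial (0.036), 4 of 4 red blood cell (0.027), 5 of 8 fast-fibre (0.021), 3 of 6 nerve (0.0016), 3 of 9 fat-cell (-0.031) and 3 of 11 slow-fibre genes (-0.25). Tendon sums were 3191 to 4799, 1812 to 5393, 3193 to 5205 and 2984 to 4067 in the order of groups above. No measured marker was at 0 on any array, no marker passed the threshold in these comparisons, and the part of these cells in the Acsl values was not tested.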

How the data were processed

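Gene expression was measured on 18 Affymetrix arrays, from 200 ng of RNA each per the labels' protocols. The authors deposited an intensity on a linear scale for 20917 probe sets, made with Affymetrix Expression Console and PLIER per the submitters' processing notes, with versions and settings not given in the sources used here. Of the probe sets, 18197 have 1 symbol in the probe table. Values were taken as log2(intensity + 16) and quantile normalized (limma 3.58.1, R 4.3.3), 1 probe set per gene was kept by the highest mean, and genes above the 25th percentile of means were tested. A group-means model of the 4 groups on all 18 arrays (lmFit, eBayes, two-sided) gave changes and p-values, adjusted by Benjamini-Hochberg over 12642 genes within each of 7 comparisons. Differences between 2 members were tested by exact permutation of animals, and correlations within groups by 100000 permutations. Marker sums are of normalized intensity.

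Members, lists and settings were chosen with earlier results of these data known. All 5 members are named, with the 3 genes most like each and, per pathway list, the 3 of smallest p in 2 comparisons and any that passed; Decr1 and Cpt1b serve as references, and the chow-lineage value of Slc27a1 was added after its values were seen. With 1 probe set a gene, no other probe set could be tried. Arrays give no depth, and their number limits the precision. The smallest SD of the log2 difference in 32 pairs of replicates was 0.187, so no array was a copy. The scripts were tested on simulated data. Alternatives were the values as deposited, median centring, offsets of 1 and 64, no filter or one at the 50th percentile, trended and robust eBayes, array weights, only the groups compared, the title number as a block, animal numbers 3 or fewer apart as a random block, and leaving out arrays.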

Additional observations from a re-analysis of the deposited data

Results flagged for a closer look

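In 1 of the 20 combinations of a member and a group, a sample lay far from the others: Acsl5 in chow/chow replicate 3, at 6.27 log2 where the other 4 animals lay between 6.45 and 6.50. The gap to its nearest neighbour was 0.785 of the range of the group, above the critical value of 0.71 for 5 samples, and chance gives about 1 such sample in 20 groups. Without this animal the Acsl5 difference between lineages was 0.17 log2 (limma adjusted p = 0.233) in place of 0.18.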

How the results depend on the processing

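The number of members called was 0 under every setting in 3 comparisons. In the fourth, the grandpaternal diet at own high-fat diet, it was 2 as deposited and 0 under the others. The directions of Acsl1 and Acsl4 with the own diet in the high-fat lineage (0.31 to 0.52 and 0.16 to 0.38) and of Acsl5 with the grandpaternal diet (0.12 to 0.25 averaged) held under every setting. Some signs turned. As deposited these were Acsl6 with the own diet in the high-fat lineage (0.098), Acsl4 with the averaged grandpaternal diet (0.067), Acsl3 and Acsl4 with it at own high-fat diet (0.11 and 0.12), Acsl3 with the own diet in the chow lineage (-0.16), Acsl4 and Acsl5 in the own-diet change between lineages (0.11 and 0.19) and the averaged grandpaternal difference of Acsl1 and Acsl4 (-0.0057). With median centring they were Acsl6 with the own diet in the high-fat lineage (0.0093), and Acsl1 (-0.0050) and Acsl4 (0.00066) with the averaged grandpaternal diet. Among the other settings they included 2 with the averaged grandpaternal diet: Acsl1 with the title number as a block (-0.0030), and Acsl5 minus Acsl6 with an offset of 64 (-0.027). Acsl3 turned with the grandpaternal diet at own high-fat diet without the 2 arrays of lowest median (0.021). As deposited, the median of all genes was shifted by 0.11 and -0.13 log2 for the own diet in the high-fat and chow lineages. The cause of these turns was not tested.

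Leaving out each array in turn, Acsl3 ran from -0.10 to 0.18 with the own diet in the high-fat lineage, Acsl1 from -0.030 to 0.082 and Acsl4 from -0.064 to 0.0096 with the averaged grandpaternal diet, and Acsl1 from -0.10 to 0.020 at own chow and -0.013 to 0.21 at own high-fat diet. The differences ran from -0.34 to 0.010 for Acsl5 minus Acsl3 and -0.19 to 0.081 for Acsl6 minus Acsl3 with the own diet, and from -0.039 to 0.098 for Acsl1 minus Acsl4 and -0.021 to 0.085 for Acsl5 minus Acsl6 with the averaged grandpaternal diet, where 0 to 3 pairs passed. With the own diet in the chow lineage, Acsl6 ran from -0.16 to 0.0060 and Acsl3 from -0.086 to 0.11. Acsl4 ran from -0.0029 to 0.14 with the grandpaternal diet at own chow. With the own diet averaged over lineages, Acsl3 ran from -0.048 to 0.094. The own-diet change between lineages ran from -0.073 to 0.042 for Acsl5, -0.029 to 0.14 for Acsl6 and -0.11 to 0.17 for Acsl3. Over all genes, the number called when single arrays were left out ran from 0 to 1 for the own diet in the high-fat lineage, 0 to 303 for the averaged grandpaternal diet, 0 to 2 at own chow and 0 to 56 at own high-fat diet.

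The 25 genes called for the averaged grandpaternal diet became 0 as deposited, with median centring, an offset of 1, either block or without the 2 arrays of lowest median. They became 38 with an offset of 64, 41 with the 50th percentile filter, 43 with trended and robust eBayes and 252 with array weights. At own chow the 1 gene became 0 as deposited, with offsets of 1 or 64 or the title number as a block, and 2 with only the groups compared. At own high-fat diet the 0 became 1689 as deposited and 1 with an offset of 1. The exact permutation p of Acsl1 for the own diet in the high-fat lineage (0.0571) lay above 0.05 where limma's unadjusted p (0.0105) lay below. That of Acsl6 for the averaged grandpaternal diet (0.0494) lay below where limma's (0.0557) lay above. By replicate number, no paired analysis was possible because the titles give none that groups have in common. Animals whose numbers lie 3 or fewer apart were instead taken as a random block (consensus correlation 0.126), which left Acsl1 and Acsl4 at 0.40 and 0.23 for the own diet in the high-fat lineage (limma adjusted p = 0.294 and 0.406) and Acsl5 at 0.18 for the averaged grandpaternal diet (adjusted p = 0.198). The intensity of Acsl5 was 50.3 to 92.0, near the array medians, and no measure of background was used here.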
